A study of Homo sapiens with 8 samples.

Results

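Constitutive intergenic sites were accessible regions that every library of the series shared and that lay outside protein-coding genes and their promoters. Regions of all 8 libraries were merged where they overlapped or touched, which gave 547779 union sites on hg38. A merged site was kept when a region of each of the 8 libraries overlapped it, when its midpoint lay outside every protein-coding gene, and when that midpoint was more than 1 kb from every protein-coding transcription start site (TSS) in GENCODE release 44. This left 26493 sites, which were 43.9% of the 60324 sites held by all 8 libraries and 10.1% of the 261869 intergenic union sites. The other sites held by all 8 libraries were 19686 in gene bodies and 14145 at promoters. Members were thus chosen by which libraries held a region and by its position, and so the presence of these sites in every group is not a finding.

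The assay was ATAC-seq (the transposase Tn5 cuts open DNA and leaves sequencing adapters there) in U2OS cells, a human osteosarcoma line. Wild-type (WT) cells were compared with ASH1L-/- cells, which carry Cas9-made deletions in exon 2 and in exons 11 and 12 of ASH1L, the gene of a histone H3 lysine 36 methyltransferase, and which were grown from isolated colonies. Both were either unchallenged or collected 3 h after UV-C irradiation at 20 J per square metre, with 2 biological replicates in each of the 4 groups. The comparison addressed whether UV light changes accessibility and whether this depends on ASH1L. Nothing in the labels says whether replicates came from separate colonies, so that p-values measure the spread between these libraries.

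Open DNA away from promoters is mostly made of enhancers and of sites bound by the insulator protein CTCF. Enhancers are held open by transcription factors that each recognise a short sequence. Among them are AP-1, a dimer of proteins of the FOS and JUN families that stress kinases activate after UV light, the TEAD factors, which are the DNA-binding partners of YAP and TAZ, and the RUNX factors, which direct the fate of bone and blood cells.

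The sequences below are hg38 reference windows of 281 bases around the summit, on the plus strand. They are shown because they belong to 4 of the 5 members with the largest rise and 4 of the 5 with the largest fall with UV, described further down, and the windows of the other two are not shown. Capitals mark every match, on either strand, to the AP-1 motif TGANTCA, the TEAD motif CATTCC or the RUNX motif TGTGGTT, and no window held the CTCF motif that was searched beside them. The first 4 sites rose with UV and each held 1 or 2 AP-1 matches, beside 1 TEAD and 1 RUNX match near ZMIZ1. The last 4 fell and held no AP-1 match. That near DNAJC10 held 1 TEAD and 1 RUNX match, that near GALNT15 held 1 RUNX match and those near EML4 and TRIM47 held none of the 4 motifs. Each site is named by the nearest protein-coding TSS, which is a position and not a known target gene.
near ZMIZ1, rose, chr10:78925824-78926104: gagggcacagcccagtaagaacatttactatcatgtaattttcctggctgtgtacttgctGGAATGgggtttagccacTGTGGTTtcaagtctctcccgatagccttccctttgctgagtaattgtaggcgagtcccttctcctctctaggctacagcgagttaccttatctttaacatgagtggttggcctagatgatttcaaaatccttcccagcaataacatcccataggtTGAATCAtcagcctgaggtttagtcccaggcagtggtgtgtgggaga
near DHRS2, rose, chr14:23606070-23606350: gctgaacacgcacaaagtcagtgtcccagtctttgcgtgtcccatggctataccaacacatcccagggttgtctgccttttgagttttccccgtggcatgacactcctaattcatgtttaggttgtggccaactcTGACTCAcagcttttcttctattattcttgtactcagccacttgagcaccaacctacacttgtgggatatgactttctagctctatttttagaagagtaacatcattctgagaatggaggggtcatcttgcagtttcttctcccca
near CHSY1, rose, chr15:101170768-101171048: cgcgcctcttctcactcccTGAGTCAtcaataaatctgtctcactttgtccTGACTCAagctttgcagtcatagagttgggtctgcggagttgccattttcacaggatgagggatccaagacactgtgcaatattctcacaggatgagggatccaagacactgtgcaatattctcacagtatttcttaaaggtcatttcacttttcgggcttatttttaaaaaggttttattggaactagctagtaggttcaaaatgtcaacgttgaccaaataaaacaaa
near PCDH7, rose, chr4:32858955-32859235: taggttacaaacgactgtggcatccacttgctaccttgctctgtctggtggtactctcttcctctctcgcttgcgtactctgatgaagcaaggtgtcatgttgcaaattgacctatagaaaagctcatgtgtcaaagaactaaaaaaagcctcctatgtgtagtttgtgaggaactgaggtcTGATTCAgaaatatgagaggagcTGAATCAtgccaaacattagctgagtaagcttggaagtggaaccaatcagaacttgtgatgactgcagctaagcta
near DNAJC10, fell, chr2:182669801-182670081: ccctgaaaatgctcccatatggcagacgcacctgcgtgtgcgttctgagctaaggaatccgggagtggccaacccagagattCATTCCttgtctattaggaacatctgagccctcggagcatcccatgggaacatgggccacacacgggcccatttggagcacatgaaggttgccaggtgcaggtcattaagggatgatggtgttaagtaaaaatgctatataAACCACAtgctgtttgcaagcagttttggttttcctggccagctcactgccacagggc
near EML4, fell, chr2:42128944-42129224: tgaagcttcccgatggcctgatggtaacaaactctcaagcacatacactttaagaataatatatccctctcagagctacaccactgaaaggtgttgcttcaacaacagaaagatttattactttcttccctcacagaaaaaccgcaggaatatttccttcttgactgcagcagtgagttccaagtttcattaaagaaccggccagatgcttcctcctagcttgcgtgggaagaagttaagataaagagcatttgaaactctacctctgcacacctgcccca
near TRIM47, fell, chr17:75872672-75872952: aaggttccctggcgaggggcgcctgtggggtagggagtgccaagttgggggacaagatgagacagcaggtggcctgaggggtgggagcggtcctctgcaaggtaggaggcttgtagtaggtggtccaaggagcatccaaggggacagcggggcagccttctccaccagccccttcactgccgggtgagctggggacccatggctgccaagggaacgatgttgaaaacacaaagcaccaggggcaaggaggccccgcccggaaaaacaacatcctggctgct
near GALNT15, fell, chr3:16071240-16071520: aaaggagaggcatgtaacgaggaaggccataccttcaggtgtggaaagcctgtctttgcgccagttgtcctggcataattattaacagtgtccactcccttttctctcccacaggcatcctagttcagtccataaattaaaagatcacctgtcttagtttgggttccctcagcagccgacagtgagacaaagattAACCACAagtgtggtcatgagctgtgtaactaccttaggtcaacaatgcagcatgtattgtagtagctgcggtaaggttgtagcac

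The value followed at each site was the percentile of its fold enrichment within the list of its own library. The fold enrichment is the peak caller's ratio of the pileup of reads at a summit to the local background of that library, and the percentile runs from the weakest region of the list near 0 to the strongest at 100. A percentile therefore gives the place of a site among the regions of 1 library, and the lists were made and scaled separately. The lists held between 158198 and 220783 regions. The lowest local background solved from the values of a list, which follows sequencing depth, was between 1.39 and 2.81 mean reads in 7 libraries and 5.87 in unchallenged ASH1L-/- replicate 1. Regions lay within 1 kb of a TSS of RUNX2, COL1A1, SPARC, VIM and FN1 in all 8 libraries, that of COL1A2 in 7 and that of TWIST1 in 2. Of 9 markers of other cell types, EPCAM, CDH1, KRT8 and PECAM1 had a region in all 8 libraries and CD3E in none. The ASH1L promoter had a region in all 8 libraries, but it lies outside the deletions and so does not check the genotype.

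Members were strong sites. Among WT libraries their median percentile was 81.2 and 82.5 when unchallenged and 78.2 and 79.8 after UV, and among ASH1L-/- libraries it was 84.9 and 78.5 when unchallenged and 79.2 and 83.0 after UV. The highest value came from the deepest library and the groups overlapped. The means were 81.8 ± 2.67 without UV and 80.1 ± 2.08 with UV (SD, n = 4 libraries each), a difference within the spread of the libraries. Promoter sites were higher, at 87.6 ± 1.57 without UV and 83.4 ± 2.49 with UV, and gene body sites were close to the members at 81.2 ± 2.73 and 80.1 ± 2.04. Of the members, 8979 (33.9%) lay in the top quartile of all 8 lists, 2335 (8.81%) in the top quartile of none, and the rest in that of some.

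**Figure D1:**
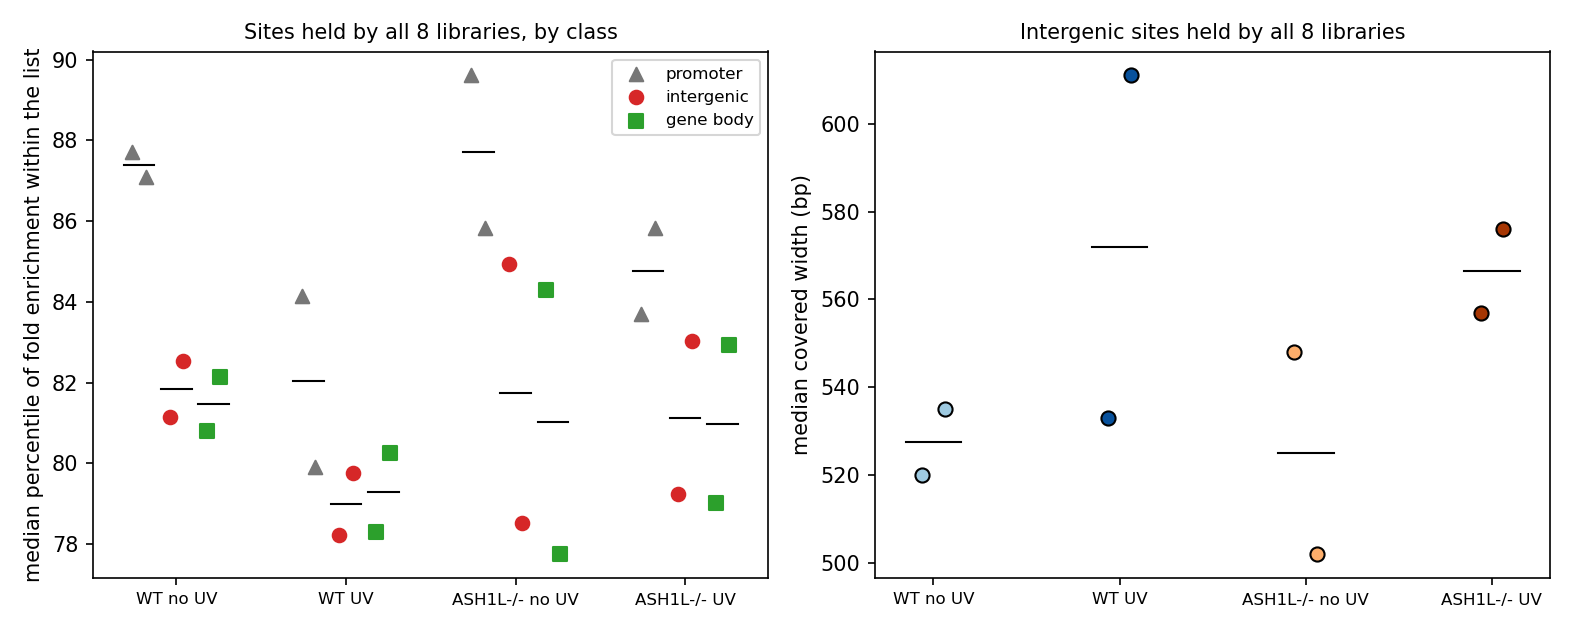
The left panel plots, for each library, the median percentile of fold enrichment within its list (0 to 100) for promoter, intergenic and gene body sites held by all 8 libraries, and the right panel the median covered width of the intergenic sites in base pairs. Each point is a library and each line the mean of 2. Intergenic medians lie between 78.2 and 84.9 and promoter medians between 79.9 and 89.6, with the smallest gap in WT UV replicate 2 (79.8 against 79.9), and the WT libraries with UV are 533 and 611 bp wide against 520 and 535 bp without.

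Intergenic sites held by 7 of 8 libraries numbered 7569 and had a median mean percentile of 58.0, against 79.3 for members. They were most often missing from unchallenged WT replicate 1 (2338 sites) and unchallenged ASH1L-/- replicate 2 (1941 sites), and least often from WT UV replicate 2 (107 sites). At the distance limit, 53 members within 100 bp beyond it had a median of 74.0, and 70 sites outside genes within 100 bp inside it had 75.6.

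The 5 strongest members were at the top of every list. The strongest was chr22:20697194-20697912, 15.4 kb from the TSS of PI4KA, a lipid kinase. This site lies 1381 bp from the start of the pseudogene BCRP5, and whether it shares reads with near-identical copies was not tested. Its fold enrichment was 31.7 and 31.2 in WT libraries without UV and 27.0 and 30.8 with UV, and in ASH1L-/- libraries 23.97 and 28.4 without and 27.9 and 29.4 with UV. Both unchallenged WT values were above those of the other 6 libraries, and the other groups overlapped. The next were chr5:8457180-8457881 at the TSS of the long noncoding RNA ENSG00000249159, and sites 81.9 kb from XDH, 256 kb from STAC and 303 kb from SEMA3D. The UV difference in percentile of these 5 sites was between -0.02 and 0.02. They were chosen for the highest mean over all libraries, which leaves little room for a difference. The same applies to the strongest members near JUN and MYC below. The 3 weakest members were 1.58 kb from H2AC11, 14.8 kb from SMAD3 and 14.3 kb from NANOS3, with mean percentiles between 4.72 and 9.99. In these the libraries scattered widely, for example from 0.00364 to 60.9 near NANOS3, with no UV difference that passed the test.

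Members had a median length of 726 bp after merging, a median distance of 52.8 kb to the nearest protein-coding TSS and a median GC content of 47.8% in the 201 bp around the summit. Promoter sites had 60.7%, gene body sites 47.8%, and the sequence 2 kb to either side of members 43.3%. Of the members, 8307 (31.4%) lay inside an annotated noncoding gene or pseudogene, and 2704 (10.2%) were within 1 kb of the TSS of one. The gene with the most members nearest to it was UQCRFS1, with 60, followed by MYC with 51, SOX9 with 44, PCDH7 with 41 and CRYBA4 with 35.

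UV light moved members in both directions. In limma across all 60324 sites, with Benjamini-Hochberg adjustment, 1408 members (5.31%) differed between the 4 libraries with UV and the 4 without, against 4.69% of all sites tested. The percentile rose at 590 members (2.23%, against 1.94% of all sites) and fell at 818 (3.09%, against 2.75%). The share called was thus close to the background, and the median UV difference was -1.02 percentile points over members and -1.39 over all sites. Both medians depended on the scale, at 0.46 and -0.09 among regions with a q-value below 0.05 and at 1.12 and 0.68 over sites held by at least 4 libraries. At 1855 members (7.0%, against 5.99% of all sites) all 4 UV libraries lay above all 4 unchallenged ones, and at 2856 (10.8%, against 12.3%) they lay below. The split between directions depended on the scale. Ranks among the 60324 shared sites gave 2294 higher and 1622 lower (14.8% called, against 13.0% of all sites). Sites held by at least 4 libraries gave 3325 and 1599 (8.45%, against 7.85%). Regions with a q-value below 0.05 gave 623 and 426 (4.25%, against 3.66%), and limma with no trend 185 and 456 (2.42%, against 2.12%). Single libraries also decided the count. Without ASH1L-/- UV replicate 1, or without replicate 2 of that group, no member passed in limma (4852 and 5577 had an unadjusted p below 0.05). Without WT UV replicate 2 the count was 650 (94 higher), without unchallenged ASH1L-/- replicate 2 it was 271 (217 higher), and without unchallenged ASH1L-/- replicate 1, the deepest library, it was 2161 (1709 higher). Of the 10 sites described next, 5 were called without WT UV replicate 2. Among regions with a q-value below 0.05, 4 of the 10 still had a site held by all 8 libraries, and all 4 were called. The others had no such site there and so were not tested.

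Members that rose went from a median mean percentile of 78.4 without UV to 95.4 with UV, by a median of 16.7 points. Those that fell went from 91.2 to 67.7, by a median of -22.5 points. Risers were farther from coding genes, at a median of 96.4 kb from a TSS against 55.2 kb for those that fell, and had a GC content of 45.3% against 48.8%.

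The largest rise was at chr10:78925730-78926269, 143 kb upstream of ZMIZ1, a coactivator of the androgen receptor and of p53. Its percentile went from 28.3 and 11.3 to 69.9 and 87.3 with UV in WT cells, and from 15.9 and 16.5 to 75.3 and 88.0 in ASH1L-/- cells. The 4 UV libraries lay above all unchallenged ones, and the difference was 62.1 ± 9.39 points (SE; limma, Benjamini-Hochberg adjusted p = 0.0231). Its fold enrichment was between 2.06 and 2.80 without UV and between 5.65 and 13.6 with UV.

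The site 23.8 kb upstream of DHRS2, a short-chain dehydrogenase, had percentiles of 59.2 and 16.5 in unchallenged WT, 90.2 and 93.9 in WT with UV, 17.8 and 23.7 in unchallenged ASH1L-/-, and 86.7 and 93.4 in ASH1L-/- with UV. The groups with and without UV did not overlap, and the difference was 61.7 ± 9.60 points (SE; limma adjusted p = 0.0231). Near CHSY1, an enzyme of chondroitin sulfate synthesis, the site at chr15:101170544-101171133 was at 22.996, 0.661, 19.8 and 0.110 in the unchallenged libraries and at 78.9, 67.9, 62.2 and 68.0 in the UV libraries, WT first. It was therefore among the weakest regions of 2 unchallenged lists and above the middle of every UV list (difference 58.4 with an SE of 11.02, limma adjusted p = 0.0284). A site 1933 kb from PCDH7, a protocadherin, went from 35.6, 75.4, 45.1 and 8.06 to 99.3, 99.9, 97.1 and 99.7 in the same order. The 4 UV libraries placed it among their strongest regions (difference 58.0 ± 10.1, limma adjusted p = 0.0252). The remaining riser was 91.8 kb from TPD52, with a difference of 59.4 ± 11.2 points and limma adjusted p = 0.0284.

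The largest fall was at chr2:182669573-182670279, 46.3 kb upstream of DNAJC10, a co-chaperone of the endoplasmic reticulum. Its percentile was 84.1 and 91.9 in unchallenged WT, 10.3 and 1.17 in WT with UV, 95.8 and 94.5 in unchallenged ASH1L-/-, and 2.07 and 25.4 in ASH1L-/- with UV. The groups did not overlap, and the difference was -81.8 ± 9.07 points (SE; limma adjusted p = 0.0231). Its fold enrichment was 6.80 to 11.8 without UV and 2.11 to 2.66 with UV.

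The site 40.2 kb upstream of EML4, a microtubule-binding protein, was at 77.5, 80.9, 89.6 and 79.6 in the unchallenged libraries and at 0.214, 5.17, 4.22 and 24.7 in the UV libraries (difference -73.3 ± 9.67, limma adjusted p = 0.0231). At chr17:75872428-75873230, 2.06 kb from TRIM47, a ubiquitin ligase, the percentiles were 67.8, 70.0, 77.8 and 74.1 without UV and 0.0325, 1.19, 0.0959 and 0.390 with UV. The UV libraries all placed this site among the weakest regions of their lists (difference -72.0 ± 10.4, limma adjusted p = 0.0231). The sites 103 kb from GALNT15 and 55.9 kb from SCAF4 had differences of -66.6 and -65.1 points, both with limma adjusted p = 0.0231 and no overlap between groups.

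**Figure D2:**
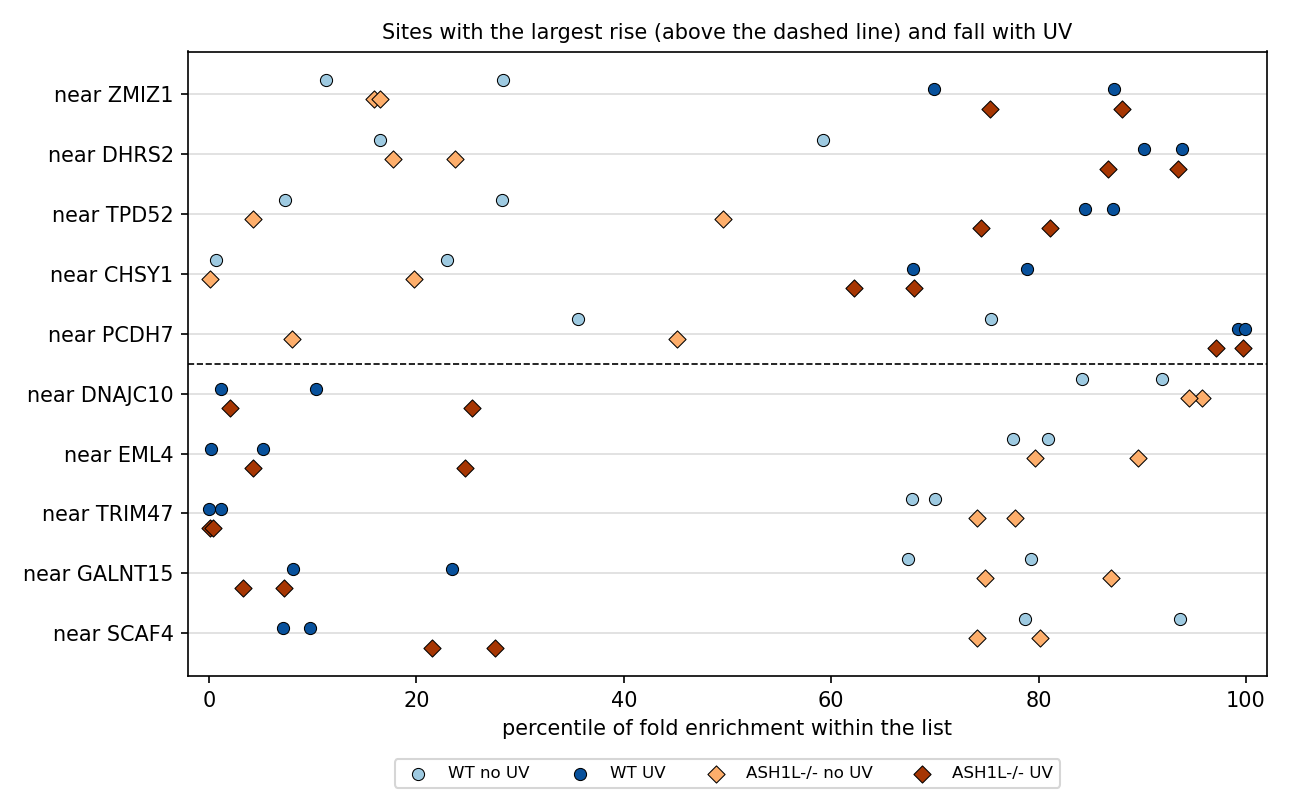
The horizontal axis is the percentile of fold enrichment within the list, and each point is a library at the 5 members with the largest rise with UV, above the dashed line, and the 5 with the largest fall, below it. Circles are WT and diamonds ASH1L-/- libraries, and dark symbols are UV libraries. At each of the 10 sites the dark and light symbols are separate, from 28.3 at most to 69.9 at least near ZMIZ1 and from 84.1 at least to 25.4 at most near DNAJC10.

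Motif shares differed between these directions but did not separate them. AP-1 matches lay within 100 bp of the summit in 7800 members (29.4%), against 24.5% of all 60324 sites, 30.1% of gene body sites, 7.59% of promoter sites and 6.25% of windows 2 kb away from members. TEAD matches were in 5138 members (19.4%, against 17.7% of all sites and 11.02% of windows 2 kb away), RUNX matches in 2108 (7.96%, against 6.90% and 3.71%) and CTCF matches in 731 (2.76%, against 2.77% and 0.679%). Of the 590 members that rose, 52.2% held an AP-1 match, and of the 818 that fell 19.8% did. The order was opposite for TEAD, with 15.9% of risers and 33.1% of those that fell, and for RUNX, with 5.42% and 17.7%. Of risers 38.1% held none of these 3 motifs, and of those that fell 42.5%. Called sites of gene bodies showed similar shares, with AP-1 in 53.6% of risers and 18.1% of those that fell. AP-1 matches were in all 5 of the named risers and in none of the 5 named sites that fell, as in the windows printed above.

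Over all members, called or not, the median UV difference followed the motif. It was 0.92 points for the 7800 members with an AP-1 match and -1.94 for the 18693 without. Among those without AP-1, the 4696 with a TEAD or RUNX match had -2.84 and the 317 with both had -4.89. With AP-1 and neither of the others it was 1.33 (5695 members), with AP-1 beside TEAD or RUNX 0.07 (2105 members), and with none of the 3 motifs -1.70 (13997 members). All are to be read against the median of -1.39 over all sites. The sign of the AP-1 and of the TEAD or RUNX group without AP-1 was the same in ranks among shared sites, normal scores and percentiles of the −log10 p, and without each library in turn, and the group with both kinds changed sign in normal scores and without some libraries. The groups overlapped widely. The UV difference was above 0 at 56.1% of members with an AP-1 match and at 38.8% of those without.

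Members with more AP-1 matches had larger UV differences. The median was -1.94 with none, 0.69 with 1 match (6697 members), 2.47 with 2 (989) and 2.63 with 3 or more (114). The share called higher was 1.51%, 3.42%, 6.37% and 14.0% in the same order. A match with C or G in the middle, the form bound by most FOS and JUN dimers, was in 5752 members without the other form, with a median of 1.002. The 1615 members with only the A or T form had 0.30, and the 433 with both forms 3.03.

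Seen by library, the difference between the median percentile of members with AP-1 and of those without was 2.15 and 2.65 in unchallenged WT, 8.51 and 6.61 in WT with UV, 1.85 and 1.44 in unchallenged ASH1L-/-, and 6.76 and 4.79 in ASH1L-/- with UV. The 4 UV libraries lay above all 4 unchallenged libraries, in both genotypes, including the deepest library at 1.85. For members with TEAD or RUNX alone, the difference from members with none of the 3 motifs was 2.52, 1.904, 2.82 and 2.79 without UV and -0.785, 0.483, 1.49 and 1.48 with UV, WT first. These did not overlap either.

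**Figure D3:**
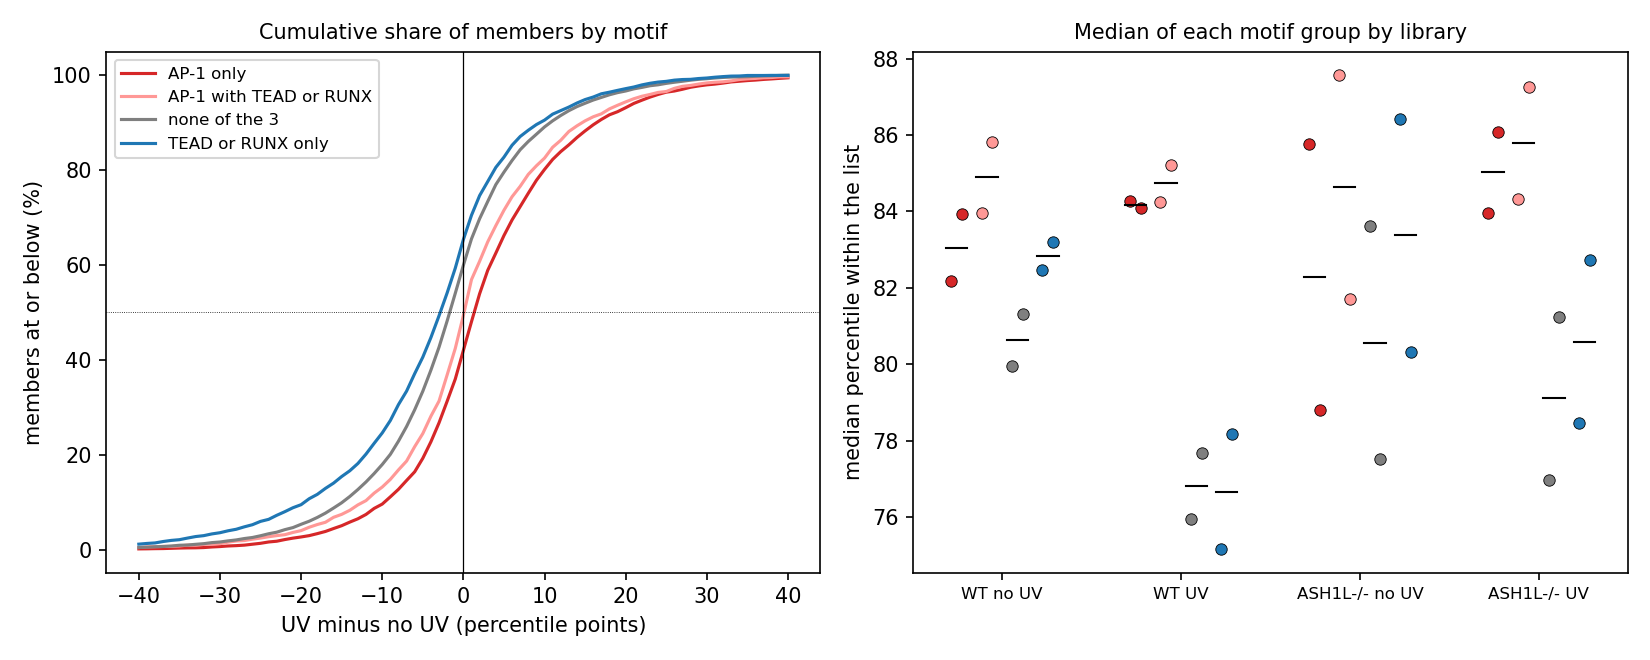
The left panel plots the cumulative share of members, in percent, against the UV minus no UV difference in percentile points, for 4 groups by motif within 100 bp of the summit, and the right panel the median percentile of each group in each library, with lines at the mean of 2. The curves cross 50% at 1.33 points for AP-1 only, 0.07 for AP-1 with TEAD or RUNX, -1.70 for none of the 3 and -2.84 for TEAD or RUNX only.

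AP-1 members had a higher median percentile (82.4) than those without (78.0) and a lower GC content (45.8% against 49.3%). In 5 bins of equal size from low to high mean percentile, the median UV difference was 3.03, 1.35, 1.69, 1.53 and 0.39 with AP-1 and -4.10, -4.05, -2.89, -1.63 and -0.37 without. In 5 bins of GC content it ranged between 1.34 and 0.11 with AP-1 and between -1.27 and -2.63 without, so that the AP-1 value was higher in each bin.

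Among the 731 members with a CTCF match the median UV difference was -1.96, with 1 called higher (0.137%, against 1.94% of all sites) and 13 lower (1.78%, against 2.75%), and the median percentile was 74.7. CTCF keeps insulators and loop anchors in place in most cell types. The 98 members with an ATF/CRE match (TGACGTCA) had -1.49, and the 201 with a p53 match had -0.48. The ETS motif CCGGAA gave -1.77 over 982 members and the SP1 motif GGGCGGG gave -2.17 over 1049. The NFY motif CCAAT gave -0.82 over 6442 members and the E-box CACGTG gave -1.09 over 843. NRF1 matches were in 22 members. On this scale AP-1 was the one motif of the 11 searched whose members had a median above 0. Among regions with a q-value below 0.05 the median was 2.46 with AP-1, 0.08 with CTCF and 0.46 over all members, and the other motifs were not recomputed there.

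Motif matches were not most frequent at the called summits. AP-1 matches were most frequent 100 to 124 bp from the summit, with 131 matches per 1000 members and 25 bp. They had 63.0 in the first 25 bp and 17.1 between 300 and 324 bp. CTCF matches had 31.9 at the same distance and 4.27 at the summit, and TEAD matches 62.1 between 75 and 99 bp. Counted from the midpoint of the site, AP-1 and CTCF were most frequent in the first 25 bp, with 126 and 20.5. The window of 100 bp to each side of the summit therefore left out many matches. A window of 200 bp, chosen after this was seen, held AP-1 in 51.5% of members, 83.1% of risers and 33.99% of those that fell, against 43.8% of all sites, and CTCF in 8.66% of members. In the wider window the median UV difference was 0.71 with AP-1 (13652 members), -3.87 with TEAD or RUNX but no AP-1 (5456), and -2.64 with none (7385).

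**Figure D4:**
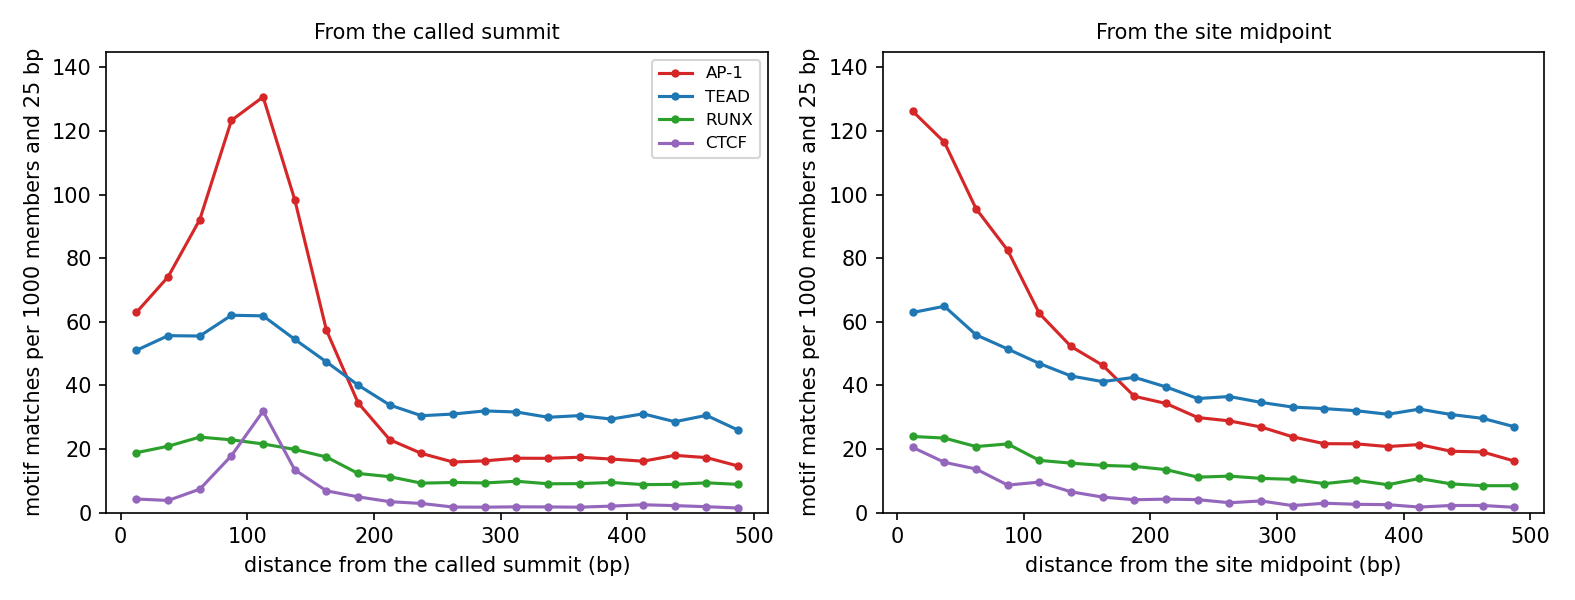
Motif matches per 1000 members and 25 bp are plotted against the distance in base pairs from the called summit (left) and from the midpoint of the site (right), both sides added together. From the summit the AP-1 and CTCF curves peak at 100 to 124 bp with 131 and 31.9, and from the midpoint they are highest in the first 25 bp with 126 and 20.5.

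UV differences also varied with the distance from coding genes. The median was -3.80 for 1758 members between 1 and 5 kb from a TSS, -1.67 between 5 and 10 kb, -1.24 between 10 and 50 kb, -0.78 between 50 and 100 kb, -0.46 between 100 and 500 kb, and 0.20 for the 1785 members beyond 500 kb. The share of AP-1 members rose from 21.8% in the nearest of these groups to 33.7% between 100 and 500 kb and was 32.1% beyond. Without AP-1 the median still went from -4.64 in the nearest group to -0.87 in the farthest, and with AP-1 from -0.78 to 2.24. Promoter sites had a median of -2.79, which lay between that of members at 1 to 5 kb and that of members at 5 to 10 kb. Members within 1 kb of a noncoding TSS had -2.03, and those outside noncoding genes and farther than 1 kb from such a TSS -0.999.

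Calls near genes of the stress response went in both directions, as they did over all sites (1.94% higher and 2.75% lower). Among 38 members nearest to genes of the AP-1 family itself, 1 was called higher and 2 lower (7.89%, against 4.69% of all sites). The strongest of them, 28.4 kb from JUN, was between 98.3 and 99.8 in all 8 libraries, with a UV difference of -0.31 ± 0.59. Immediate-early genes encode the first transcription factors and phosphatases made after a stimulus. Among 204 members nearest to them, 3 were called higher and 10 lower (6.37%, against 4.69% of all sites). KLF6, which encodes a zinc-finger factor, had 1 higher and 3 lower of 27 members, and IER5 2 lower of 12. The IER5 site (called sites of these lists are named with their values known) at chr1:181073567-181074155 was at 94.4, 97.7, 97.1 and 95.4 without UV and at 62.8, 52.5, 60.4 and 69.1 with UV (difference -34.9 ± 4.63, limma adjusted p = 0.0231). MYC had 1 higher and 2 lower of 51, and its strongest site, whose nearest noncoding start is that of PVT1, was between 99.6 and 99.9 in all libraries. Among the called sites of these 2 lists, the risers near DUSP4, KLF6 and MYC held an AP-1 match within 100 bp. The riser near ATF3 held none. Of the sites that fell, those near DUSP1 and ATF3 and 1 near MYC held an AP-1 match, and the others did not.

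Of 28 members nearest to p53 target genes, 1 was called higher and 2 lower (10.7%, against 4.69% of all sites). The 5 members nearest to CDKN1A, the cell cycle inhibitor p21, included none. At GADD45A, a DNA damage response gene, 2 called members (named here after their values were seen) lay close together and moved in opposite directions. That at chr1:67559096-67559821 went from 88.1, 84.1, 85.2 and 88.8 without UV to 97.3, 97.4, 96.6 and 97.2 with UV and held an AP-1 match (10.6 ± 1.69, limma adjusted p = 0.0233). That at chr1:67561641-67562094 went from 82.0, 82.9, 80.9 and 82.8 to 48.3, 49.3, 56.2 and 60.6 and held none of the 11 motifs within 100 bp (-28.6 ± 5.58, limma adjusted p = 0.0306). More widely, 8140 genes were nearest to a member and 1137 of them to a called one. Of these, 87 had both a riser and one that fell. Genes with more members have more room for both, and this was not set against a background.

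Of 22 members nearest to genes of nucleotide excision repair, the pathway that removes UV lesions, 1 was called higher and 1 lower (9.09%, against 4.69% of all sites). The riser was 11.02 kb from ERCC6, the gene of the CSB protein of transcription-coupled repair, with 80.8, 87.7, 86.2 and 85.3 without UV and 93.2, 98.5, 92.3 and 94.4 with UV (9.63 ± 2.33, limma adjusted p = 0.0477). This riser held 2 NFY matches and no AP-1 match within 100 bp. The site that fell was 17.3 kb from XPA, a factor that the pathway needs after lesion recognition. It was at 97.1, 91.2, 97.7 and 89.3 without UV and at 60.2, 70.5, 82.9 and 76.0 with UV (-21.4 ± 4.16, limma adjusted p = 0.0304). It held 2 TEAD matches and 1 RUNX match. Of the 16 genes on this list, 5 had a member nearest to them. XPC, DDB1 and DDB2, the lesion sensors, were among those with none.

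Of 31 members nearest to TEAD and YAP genes, 1 was called, lower, 48.1 kb from ANKRD1, a YAP target. It was at 87.4, 90.98, 93.1 and 90.0 without UV and at 66.8, 71.6, 73.5 and 82.0 with UV (-16.9 ± 3.91, limma adjusted p = 0.0437). Of 76 members nearest to osteoblast and mesenchymal genes, 2 were called higher, both near BMP2, a bone morphogen, and 3 lower, near MSX2 and RUNX1. The strongest members of the p53, repair and TEAD lists, near GADD45A, XPA and CCN2, had mean percentiles of 97.6, 98.1 and 99.1, and none of the 3 passed the UV test. Shares called in these lists were between 3.23% and 10.7%, against 4.69% of all sites.

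Members were covered over more bases with UV. The median covered width was 520 and 535 bp in unchallenged WT, 533 and 611 bp in WT with UV, 548 and 502 bp in unchallenged ASH1L-/-, and 557 and 576 bp in ASH1L-/- with UV. The groups overlapped, at 526 ± 19.8 bp without UV and 569 ± 32.9 bp with UV (SD, n = 4). Regions of all kinds were also wider in the UV lists, and the sites held by all 8 libraries had medians of 543 ± 20.7 and 592 ± 35.5 bp. In limma on log2 width, 227 members (0.857%, against 0.902% of all sites) changed, 197 wider (0.826% of all sites) and 30 narrower (0.0763% of all sites). Relative to the median width of each library 154 passed (0.581%, against 0.575%), 98 wider (0.404% of all sites) and 56 narrower (0.171% of all sites), and with the replicate number as a block none did (4344 had an unadjusted p below 0.05). Leaving out unchallenged WT replicate 2 gave 560 and unchallenged ASH1L-/- replicate 1 gave 1065, and leaving out any of the other 6 libraries gave 0 to 2.

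The 3 largest called changes in width were near FABP3, LGALS13 and PYDC2. The FABP3 site, chr1:31386511-31388141, was covered over 260, 451, 373 and 416 bp without UV and over 1540, 1559, 1592 and 1508 bp with UV. The groups did not overlap, and the log2 difference was 2.08 (limma adjusted p = 0.0267), beside a percentile difference of 44.3 that did not pass (adjusted p = 0.0505). At LGALS13 and PYDC2 the log2 differences were 1.80 and 1.76, both with limma adjusted p = 0.037. The 5 widest members, near HCFC1R1, TMTC1, PGRMC1, UQCRFS1 and GPIHBP1, were covered over 1531 to 3469 bp, and none passed a UV test of percentile or width.

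Members called by percentile also differed in width. Both measures were read from the same regions of a list, so the widths are not separate support for the percentile calls. The median log2 width difference was 0.41 over the 590 members that rose in percentile, of which 98.1% were wider with UV, and -0.20 over the 818 that fell, of which 16.5% were wider. Over all members it was 0.12, and over all sites 0.13.

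UV moved members in the same direction in both genotypes more often than not. Over the 26493 members the UV difference of WT and that of ASH1L-/- cells, which share no library, had Pearson's r of 0.538 and Spearman's rho of 0.531, and the same sign at 70.3%. These are correlations across sites of 8 libraries, sites are not independent replicates, and over all sites held by 8 libraries r was 0.534. All 1408 called members had the same sign in both, with medians of 15.4 in WT and 16.5 in ASH1L-/- for risers, and of -23.2 and -19.0 for those that fell. The call itself favours such sites. Both UV libraries lay above both unchallenged ones in each genotype at 2692 members (10.2%, against 8.8% of all sites), and below them in each at 4006 (15.1%, against 17.2%). They lay above in WT and below in ASH1L-/- cells at 202 (0.762%, against 0.706%), and the reverse at 403 (1.52%, against 1.5%).

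**Figure D5:**
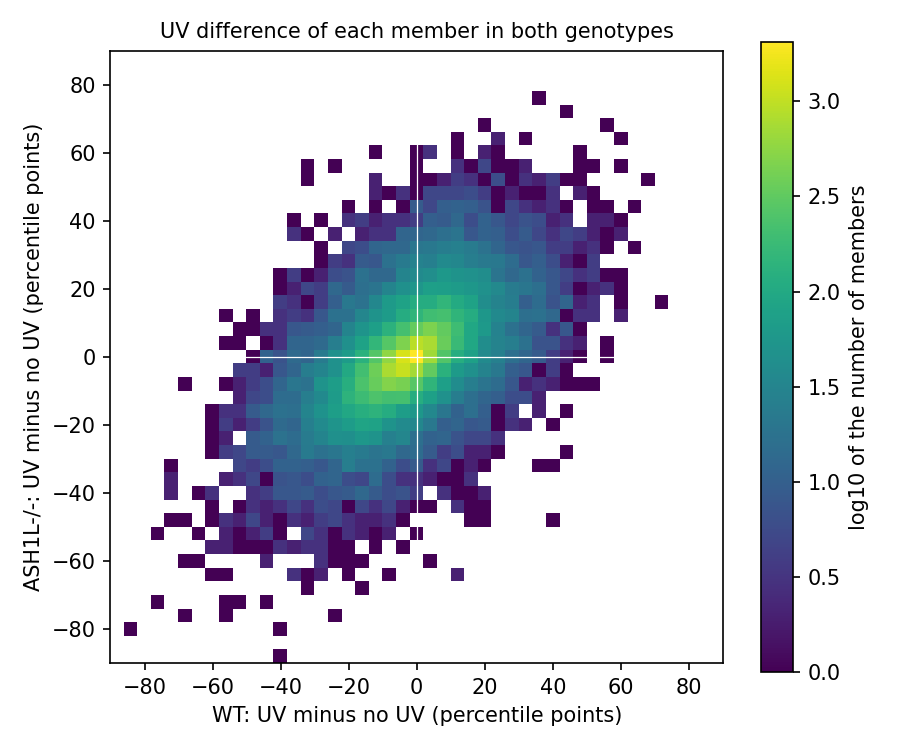
Each cell of the map counts members, as log10 of their number, by the UV difference in percentile points of WT cells on the horizontal axis and of ASH1L-/- cells on the vertical axis. Members lie along the diagonal (Pearson's r of 0.538 over 26493 members) with most near 0 in both.

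No member passed the test of the difference in UV response between genotypes. In limma with Benjamini-Hochberg adjustment 0 members were called (0.0% of all sites), and 846 had an unadjusted p below 0.05. The median difference, ASH1L-/- minus WT, was 1.68 points over members and 1.75 over all sites, from UV medians of -1.83 in WT and -0.25 in ASH1L-/-. The other ways of scaling called none, and leaving out unchallenged WT replicate 2 called 8. An opposite move of the genotypes was seen near REEP3. At chr10:63833386-63834092, 236 kb from REEP3, WT went from 76.1 and 83.1 to 53.6 and 43.1 and ASH1L-/- from 9.25 and 34.1 to 75.5 and 82.2. In neither genotype did the replicates overlap between conditions at this site, and the difference of 88.4 ± 16.8 points (SE) had limma adjusted p = 0.9999.

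At several of the sites named for the smallest interaction p, the unchallenged ASH1L-/- libraries stood apart from the other 3 groups. That choice favours sites where 1 group stands apart. Near PDGFD, a growth factor gene, they were at 24.02 and 23.7, against 78.3 and 71.2 in unchallenged WT, 77.6 and 75.1 in WT with UV, and 80.3 and 89.8 in ASH1L-/- with UV. Near KRTAP11-1 they were at 8.66 and 11.1, against 54.2 to 78.9 in the other groups, and near KCNT2 at 73.5 and 76.2, against 93.9 to 97.3. A member 3.65 kb upstream of ATF3, a stress-induced AP-1 partner, showed the same order (it was chosen after its values were seen), with 16.7 and 16.9 against 67.5 to 82.4. At CCKAR, also named for a small interaction p, the unchallenged ASH1L-/- libraries were at 76.4 and 80.2, against 92.6 to 99.4. Other sites of this kind set another group apart. Unchallenged WT was at 19.0 and 16.5 near IL7, against 70.3 to 91.5 in the other groups. Near AGA it was at 59.2 and 56.0 (against 82.9 to 99.4) and near RPS29 at 69.1 and 75.4 (against 91.3 to 99.1). Near SLC45A1 ASH1L-/- with UV was at 30.3 and 16.7, against 78.4 to 96.6. At CCKAR, AGA, RPS29, SLC45A1 and IL7 both genotypes moved the same way with UV, by unequal amounts. None of these interactions passed (limma adjusted p = 0.9999). The unchallenged ASH1L-/- libraries were the deepest and the shallowest of the 8 (lowest local background 5.87 and 1.39), and the part of depth in these values was not tested.

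No member passed the genotype test either. In limma 0 were called (0.0% of all sites), 2720 had an unadjusted p below 0.05, and the smallest adjusted p was 0.194. The median difference, ASH1L-/- minus WT, was 0.80 points over members as over all sites, and all 4 ASH1L-/- libraries lay above all 4 WT libraries at 793 members (2.99%, against 2.57% of all sites) and below them at 405 (1.53%, against 1.51%). Normal scores and ranks among shared sites each called 49 members, leaving out unchallenged WT replicate 2 called 124, leaving out unchallenged ASH1L-/- replicate 1 called 18, and the other alternatives called none. The members of smallest p are given with their values. A site 156 kb from SLC13A1, a sulfate transporter, was at 49.9, 56.0, 61.5 and 70.1 in WT and at 93.8, 97.9, 95.6 and 98.3 in ASH1L-/- cells, and one 26.6 kb from IPO7, an importin, at 66.4, 69.2, 48.1 and 53.9 and at 94.2, 94.8, 88.7 and 88.6. Both were higher in every ASH1L-/- library (differences of 37.0 and 32.2 points, limma adjusted p = 0.194 for both).

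Members near MCPH1, PWWP4 and KLF5 were likewise higher in all 4 ASH1L-/- libraries, by 25.7, 19.6 and 6.38 points. In the other direction, a site 76.3 kb from WIPF3 was at 88.7, 94.0, 68.4 and 73.6 in WT and at 63.6, 53.1, 5.42 and 10.9 in ASH1L-/- cells (-47.9 points, limma adjusted p = 0.194). It was lower in each ASH1L-/- library and, within each genotype, lower with UV. Members near POU3F4, CDH6, MAU2 and NENF were lower by 11.6, 14.4, 14.7 and 26.8 points (limma adjusted p = 0.194 for POU3F4 and CDH6 and 0.204 for MAU2 and NENF). The site near POU3F4, a neural transcription factor, was at 99.8, 99.1, 96.6 and 99.3 in WT and at 92.7, 92.0, 80.4 and 83.5 in ASH1L-/- cells. By chromosome the median genotype difference of members was between -0.38 (chromosome 16) and 1.37 (chromosome 11), and that of UV between -2.18 (chromosome 19) and -0.29 (chromosome 4).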

How the data were processed

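ATAC-seq peak lists of 8 U2OS libraries were analysed, 2 for each of 4 groups taken from the sample labels. The submitters' processing notes name cutadapt 1.9.1, Bowtie2 2.4.5, SAMtools 1.7, Picard, bedtools 2.29.2 and MACS2 2.2.7.1. Per the study's methods, reads were aligned to hg38 without chromosome Y, and duplicates, blacklisted regions and reads of low mapping quality were removed. Peaks were called with default settings. The lists also hold regions with a q-value of 0.05 or more (97.5% to 99.9% of members were below 0.05 in a library), so that the threshold behind list length, membership and percentiles is not clear. The lists hold each library on its own, with no pooling of replicates. The deposited values are a fold enrichment (a ratio, the pileup at a summit over the local background), a −log10 p-value, a −log10 q-value and a score derived from the p-value, none of them normalised between libraries by the authors. The deposited score was not used. Read counts were not used here, so that no intervals for counting error are given, and the relative depth was solved from fold enrichment and p-value.

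Summits that shared an interval were joined to 1 region with the highest fold enrichment. Percentiles were ranks within each list, the value of a site in a library was that of its strongest region, and the width was the bases covered. All 26493 members entered every test, with no filter on low values. limma 3.58.1 in R 4.3.3 was fitted with a mean-variance trend to all 60324 sites held by all 8 libraries, with 4 group means, contrasts for UV, genotype and UV by genotype, and Benjamini-Hochberg adjustment at 0.05. The procedure was run on simulated data with independent noise at each site and no shift of whole libraries. That run therefore does not cover the dependence of the calls on single libraries. Motifs were searched on both strands within 100 bp of the summit, with N for any base.

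Named sites were, for each contrast, the 5 largest rises and 5 largest falls among sites past the threshold, filled by smallest p where fewer passed, the 5 strongest and 3 weakest members, the 5 widest, the 3 with the largest called change in width, and the strongest member of each gene list. The results of 2 of these sites are not reported here. Members and lists were chosen with earlier results of these data known. A motif window of 200 bp was chosen after seeing the data. The other alternatives concerned the scale, the regions used, the variance model, a replicate block and leaving out each library.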

Additional observations from a re-analysis of the deposited data

Results flagged for a closer look

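At 4 of the named sites reported here both UV libraries of WT cells lay on one side of both unchallenged ones, and those of ASH1L-/- cells on the opposite side. The UV difference of ASH1L-/- cells minus that of WT cells was 88.4 percentile points near REEP3 (chr10:63833386-63834092) and 75.4 near KRTAP11-1 (chr21:30882803-30883489). It was -18.4 near NENF (chr1:212469855-212470539) and -2.24 near KLF5 (chr13:73421137-73422030). None of the 4 differences passed the interaction test (limma with Benjamini-Hochberg adjustment, adjusted p = 0.9999 for each). Among all 26493 members, 202 (0.762%, against 0.706% of all sites) lay higher with UV in WT and lower in ASH1L-/- cells in this sense, and 403 (1.52%, against 1.5%) the reverse.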

How the results depend on the processing

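The number of members was 16885 where each library had to cover 50% of a site and 17271 outside all annotated genes and more than 1 kb from every annotated TSS, and 26599 to 28841 without each library in turn. UV calls numbered 3071 in normal scores, 3916 in ranks among sites shared by all libraries, 2262 in percentiles of the −log10 p, 4924 over sites held by at least 4 libraries and 641 with no trend, and 0 to 2161 without each library in turn. Genotype calls numbered 49 in normal scores and 49 in ranks among shared sites, and 0 to 124 without each library. Interaction calls numbered 0 to 8 without each library. The median UV difference of AP-1 members was 3.79 in ranks among shared sites and 0.0740 to 2.03 without each library, that of CTCF members -3.37 to -0.98, and that of all members -2.07 to 0.0359. Among regions with a q-value below 0.05 the medians of CTCF members and of all members were above 0, at 0.0821 and 0.462. Width calls numbered 0 to 1065 without each library. The cause of these shifts was not tested. With the replicate number as a block, 998 UV percentile calls (3.77%, against 3.24% of all sites) and 0 UV width calls were made. The numbers do not establish pairs, since replicate differences correlated between groups at -0.0821 to 0.123. With 2 libraries a group, depth between 1.39 and 5.87 and lists scaled separately, changes in absolute accessibility and changes of rank cannot be told apart.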
